A study of Mus musculus with 5 samples.

Results

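The 10 genes described here encode secreted proteins of the extracellular matrix. They are Fn1 (fibronectin), the basement membrane collagen chains Col4a1 and Col4a2, the fibrillar collagen chains Col1a1, Col1a2 and Col3a1, the matricellular proteins Sparc, Sparcl1 and Thbs1, and Ecm1 (extracellular matrix protein 1). They were picked by symbol out of 55450 genes in the count matrices, and each symbol matched 1 gene identifier. The question was which cell types of the mouse cortex carried their transcripts without injury and at 4 times after traumatic brain injury.

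Cortical tissue of C57BL/6J mice was dissociated with papain, freed of debris on a Percoll gradient and profiled with droplet-based 3′ single-cell RNA sequencing. There was 1 library for sham-operated mice and 1 library each for 1, 3, 7 and 14 days after injury. The labels of the injured libraries name the injury site as the source, whereas the sham label names no site, and the number, age and sex of the mice in each library are not given. With 1 library per group there is no replicate check and no test between groups, and the intervals below cover counting error only.

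Brain parenchyma contains little fibrillar collagen. In uninjured cortex, the basement membrane around blood vessels, made of type IV collagen, laminins, nidogens and perlecan, is the main site of collagen, and fibroblasts are found in the meninges and around larger vessels. After injury, fibronectin and fibrillar collagens are known components of the scar, and matricellular proteins, which bind matrix and cells without forming fibres, are known for their part in tissue remodelling.

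The 5 libraries held between 9895 and 14159 cell barcodes, beside a stated loading of 5188 to 11934 cells per sample. Total UMIs (counted transcript molecules) were 11279455 in the sham library and between 26705021 and 129161094 in the injured ones, and the median per barcode was 773 UMIs in the sham library against 8558 at day 14. Of 60574 barcodes, 55321 passed the filters, and 16 classes were named from marker genes, with 186 cells left unnamed. Any pair of libraries shared between 27 and 59 barcodes, at most 0.483% of the smaller library. Most microglia-like, macrophage-like and astrocyte-like clusters were made up mainly of 1 library (for example, 4250 of the 4522 cells of 1 microglia-like cluster were from sham and 3595 of the 3908 cells of another were from day 1), so injury and library cannot be told apart in those clusters. The levels below are counts per 1000000 UMIs of a class in a library (CPM). A ratio to sham was counted as higher or lower at 2-fold or more, among genes with a mean of at least 10 CPM over the pair of libraries.

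**Figure D1:**
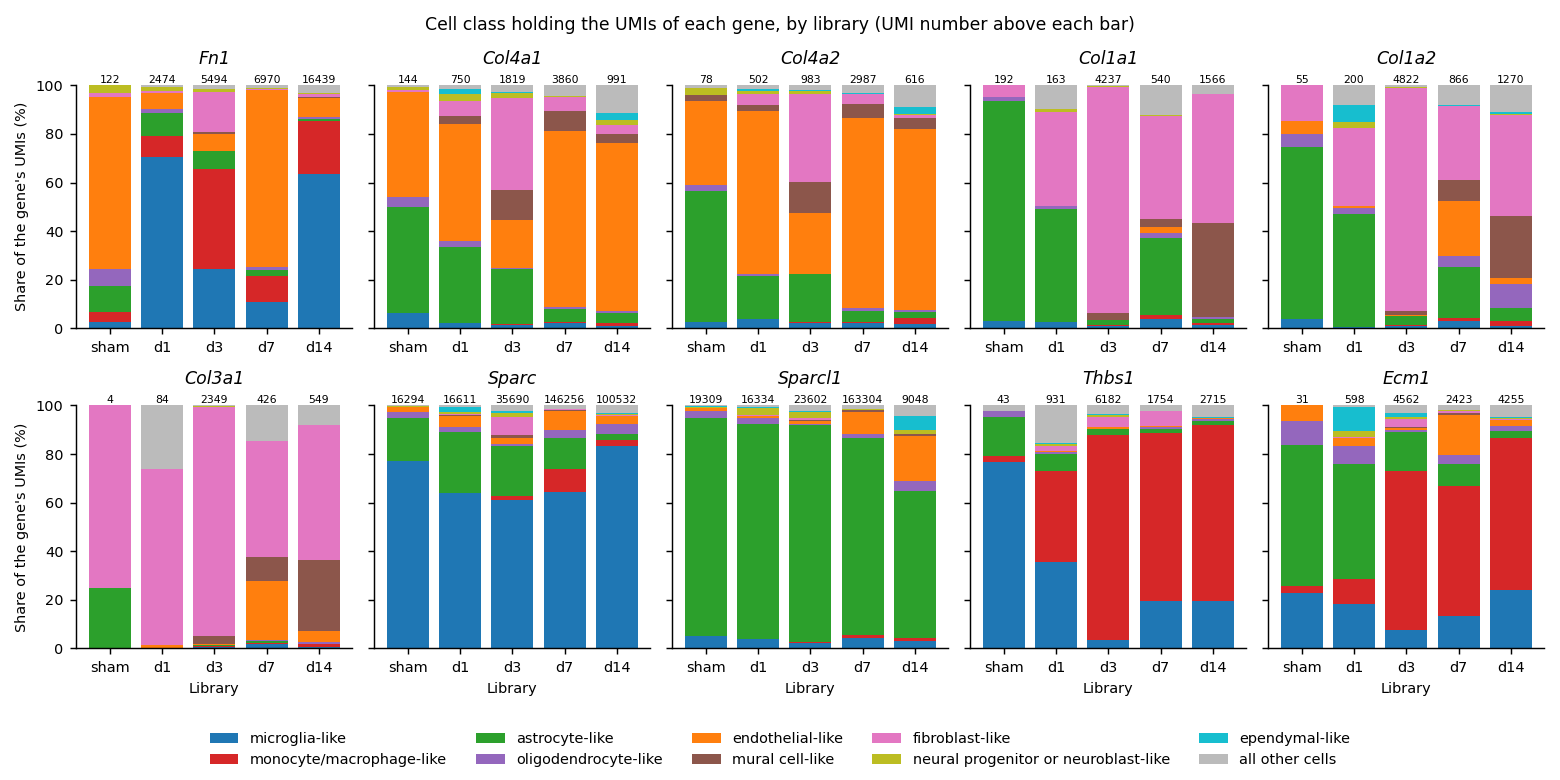
Share of each gene's UMIs (vertical axis, percent) that lay in each cell class, by library (horizontal axis), with the number of UMIs above each bar. The 3 fibrillar collagen genes at day 3 lie between 91.9% and 94.6% in fibroblast-like cells, while Sparc lies mainly in microglia-like cells in each library and Sparcl1 mainly in astrocyte-like cells.

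Fn1 encodes fibronectin, an adhesive glycoprotein bound by integrins and by collagen. In the sham library it lay mostly in vessels, where endothelial-like cells, 86 of 10539 cells, held 70.5% of its 122 UMIs. At day 1 the microglia-like cells held 70.6% of 2474 UMIs, at day 3 the monocyte/macrophage-like cells held 41.2% of 5494, at day 7 the endothelial-like cells again held 72.8% of 6970, and at day 14 the microglia-like cells held 63.7% of 16439. At Leiden resolution 2 the first class at day 14 was monocyte/macrophage-like in place of microglia-like. The leading source of Fn1 thus differed between libraries while its endothelial level in CPM stayed within a 2-fold range. These shares also carry the number of cells of each class in a library. Endothelial-like cells were 0.816%, 0.603%, 0.768%, 3.34% and 0.563% of kept cells from sham to day 14.

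In endothelial-like cells, the Fn1 level was 739.6 CPM in the sham library and 1032, 1349, 1064 and 971 CPM at days 1, 3, 7 and 14. The highest log2 ratio to sham was 0.87 (95% counting interval 0.53 to 1.22) at day 3, below the 2-fold mark, although TMM and DESeq2 scaling placed it at 1.22 and 1.20. In microglia-like cells the level was 0.81 CPM in the sham library, from 3 UMIs in 4505 cells, and 218, 113, 20.7 and 207 CPM at days 1, 3, 7 and 14. Days 1 and 14 were thus the high ones and day 7 the lowest of the injured libraries. The 19 monocyte/macrophage markers summed to 379 CPM in the sham microglia-like cells and to 967, 1566, 1724 and 3613 CPM afterwards, and their part in the Fn1 values was not tested. When each cell was thinned to 500 UMIs, so that depth was equal, 0.0222% of sham microglia-like cells held an Fn1 UMI, against 5.76% (95% exact interval 5.05 to 6.53) at day 1, 3.74% at day 3, 0.797% at day 7 and 4.22% at day 14.

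As a measure of endothelial transcripts in the microglia-like cells, endothelial markers were set beside Fn1. At day 1 the Fn1 level of microglia-like cells was 21.1% of the endothelial level, while 18 endothelial marker genes lay at a median of 0.0630% of theirs. At day 14 the same values were 21.3% and 0.0977%. The part of free RNA in the Fn1 level was not tested.

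Monocyte/macrophage-like cells had 1224, 414, 51.3 and 164 CPM of Fn1 at days 1, 3, 7 and 14, and 189.7 CPM in the sham library from 5 UMIs in 22 cells. Among their clusters, 1 led by Arg1, Chil3 and Pf4 had 2229 CPM in 39 cells at day 1, 477 CPM in 716 cells at day 3 and 2090 CPM in 34 cells at day 14, and another led by Ccl8 and MHC class II genes had 202 CPM in 249 cells at day 3 and 136 CPM in 1505 cells at day 14. Within microglia-like cells, the cycling cluster had 165 CPM at day 3 and 424 CPM at day 14, above the largest cluster of each of those libraries at 96.2 and 197 CPM. Fibroblast-like cells at day 3 had 763 CPM in 63 cells, and neutrophil-like cells at day 14 had 329 CPM in 84 cells, beside 13.5 CPM in 148 cells at day 1. The summed level of 19 monocyte/macrophage markers in those neutrophil-like cells was 3798 CPM at day 1 and 12628 CPM at day 14, and its part in that value was not tested.

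**Figure D2:**
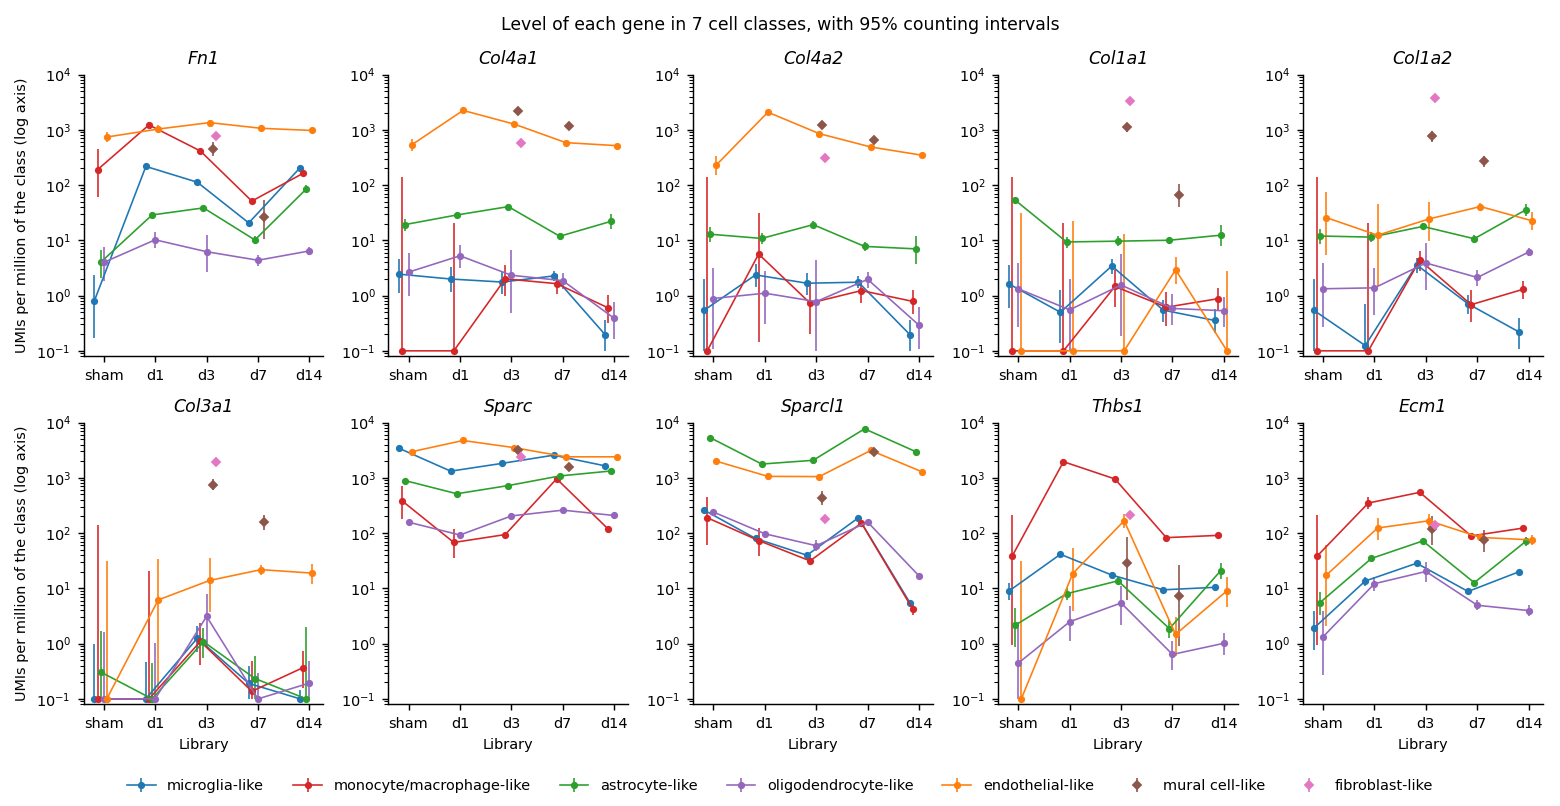
Level of each gene in CPM of the class (log axis) in the 5 libraries, for 7 classes with at least 20 cells, with 95% Poisson intervals as bars. Values of 0 are drawn at 0.1. For Col4a1 and Col4a2, endothelial-like cells lie above the other classes in each library, except that mural-like cells are above them at days 3 and 7, and the single points of fibroblast-like cells at day 3 stand highest for Col1a1, Col1a2 and Col3a1.

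Col4a1 and Col4a2 encode the chains of the most widespread type IV collagen, the network-forming collagen of basement membranes, and their genes lie head to head. In the RefSeq table of build GRCm38.p6 the windows from 250 bases before to 50 bases after each start, at chr8:11312777-11313076 on the minus strand for Col4a1 and chr8:11312555-11312854 on the plus strand for Col4a2, share 78 bases, and the starts are 21 bases apart on opposite strands. The sequences are shown because this shared stretch holds the starts of both genes, the pair whose levels were most alike. The genes overlap at these starts, so the stretch lies within the genes and not between them. Capitals mark matches, on either strand, to CCAAT and to GGGCGG, which occur in 37.4% and 35.7% of 32851 promoter windows of the same length.
Col4a1: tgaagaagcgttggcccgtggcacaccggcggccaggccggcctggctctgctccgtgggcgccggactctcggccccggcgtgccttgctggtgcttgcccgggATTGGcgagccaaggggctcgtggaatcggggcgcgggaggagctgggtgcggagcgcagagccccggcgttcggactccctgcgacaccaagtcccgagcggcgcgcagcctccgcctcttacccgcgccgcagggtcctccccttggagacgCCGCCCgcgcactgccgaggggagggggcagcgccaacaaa
Col4a2: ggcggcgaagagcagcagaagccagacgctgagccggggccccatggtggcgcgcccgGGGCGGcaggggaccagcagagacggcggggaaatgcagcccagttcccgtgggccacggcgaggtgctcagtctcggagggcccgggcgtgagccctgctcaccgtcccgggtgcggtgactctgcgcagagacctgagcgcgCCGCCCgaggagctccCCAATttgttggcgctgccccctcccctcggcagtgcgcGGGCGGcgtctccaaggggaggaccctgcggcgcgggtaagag
The Col4a1 window holds 1 CCAAT and 1 GGGCGG match, and the Col4a2 window holds 1 and 3. One GGGCGG match lies at the same place in both. These matches describe letters in the windows and say nothing of binding.

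Within endothelial-like cells, both chains were highest 1 day after injury. Col4a1 stood at 533 CPM in the sham library and at 2243, 1262, 585 and 516 CPM at days 1, 3, 7 and 14, from 62, 363, 363, 2792 and 684 UMIs. Col4a2 stood at 232 CPM in the sham library and at 2082, 852, 489 and 346 CPM, from 27, 337, 245, 2332 and 459 UMIs. Days 1 and 3 were thus the high libraries for both, and by day 14 Col4a1 was within its counting error of sham. The 16 microglia markers summed to 7671 CPM in these cells in the sham library, 2249 CPM at day 1 and 16236 CPM at day 14. The 16 mural markers summed in them to 2468, 3170, 1593, 4095 and 2949 CPM from sham to day 14. The part of either set in the levels was not tested.

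For Col4a1, the 4 injured libraries in order of time had log2 ratios of 2.07 (1.68 to 2.49), 1.24 (0.85 to 1.66), 0.13 (-0.23 to 0.52) and -0.05 (-0.42 to 0.35). Those of Col4a2 were 3.16 (2.60 to 3.79), 1.88 (1.30 to 2.51), 1.07 (0.53 to 1.68) and 0.58 (0.02 to 1.19). With the mean over cells in place of summed counts, the day 3 ratio of Col4a1 was 0.77 and the day 7 ratio of Col4a2 was 0.60, both under 2-fold, and with doublets kept the latter was 0.82. The counts came from 86, 71, 73, 399 and 65 cells, and the 10 cells with the most UMIs held 45.2% of the sham and 44.1% of the day 1 UMIs of Col4a1.

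The shares of cells point the same way at equal depth. With 500 UMIs per cell, a Col4a1 UMI was seen in 26.7% (17.8 to 37.4) of sham endothelial-like cells, 59.2% (46.8 to 70.7) at day 1, 34.2% at day 3, 24.8% at day 7 and 21.5% at day 14. For Col4a2 the share was 14.0% (7.42 to 23.1) in the sham library and 56.3% (44.1 to 68.1) at day 1. Without thinning, both chains were seen together in 12 of 86 sham cells and 52 of 71 cells at day 1, and these last values also carry the depth of the libraries.

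Mural-like cells (pericytes and smooth muscle) had 2232 CPM of Col4a1 and 1233 CPM of Col4a2 in 31 cells at day 3, and 1176 and 664 CPM in 106 cells at day 7. Fibroblast-like cells at day 3 had 585 and 304 CPM, and because of their high UMI number they held 37.7% and 36.2% of the library's UMIs of these genes. Astrocyte-like cells were far lower, with Col4a1 at 19.3, 28.8, 40.7, 11.8 and 22.1 CPM from sham to day 14, of which only day 3 passed 2-fold, at a log2 ratio of 1.07 (0.69 to 1.48). That call was lost when cells needed 1000 UMIs (0.25), at Leiden resolution 2 (0.71), at a mitochondrial limit of 10% (0.75), with doublets kept (0.81) and with the 10 genes in the clustering (0.74). The 16 mural markers summed in astrocyte-like cells to 113 CPM in the sham library and 958 CPM at day 3, and their part was not tested. At day 3, 5 of them reached 10 CPM. Tagln, 1 of the 16, also led an astrocyte-like cluster of 873 day 3 cells, so this sum is no measure of mural transcripts alone. In the sham library the many astrocyte-like cells nevertheless held 43.8% of the 144 Col4a1 UMIs, next to 43.1% in endothelial-like cells.

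Collagen I and collagen III form the fibrils of connective tissue. Collagen I is built from the chains of Col1a1 and Col1a2, collagen III from Col3a1 alone. The promoter of Col1a2, at chr6:4505368-4505667 on the plus strand (RefSeq, GRCm38.p6), is shown because Col1a2 UMIs were counted in several classes with few or no Col1a1 UMIs. Capitals again mark CCAAT and GGGCGG matches on either strand, here 2 of each.
Col1a2: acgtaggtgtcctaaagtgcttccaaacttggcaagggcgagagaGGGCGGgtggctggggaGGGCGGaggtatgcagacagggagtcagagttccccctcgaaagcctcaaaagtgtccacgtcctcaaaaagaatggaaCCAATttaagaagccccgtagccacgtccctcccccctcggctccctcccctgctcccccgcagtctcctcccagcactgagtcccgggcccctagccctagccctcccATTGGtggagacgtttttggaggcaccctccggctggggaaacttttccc
The Col3a1 window holds 1 match to TATAAA, a sequence found in 13.6% of windows, and the Col1a2 window holds none.

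The 3 fibrillar genes were rare outside 1 library. From sham to day 14, the libraries held 192, 163, 4237, 540 and 1566 UMIs of Col1a1, 55, 200, 4822, 866 and 1270 of Col1a2, and 4, 84, 2349, 426 and 549 of Col3a1. Day 3 was thus the highest for each gene although the day 7 and day 14 libraries were deeper. In that library 63 fibroblast-like cells, 0.663% of the cells kept, held 93.1%, 91.9% and 94.6% of the UMIs of the 3 genes.

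In those 63 cells the levels were 3368 CPM for Col1a1, 3783 CPM for Col1a2 and 1896 CPM for Col3a1, and 59 of them held UMIs of both collagen I chains. Most belonged to a cluster of 50 day 3 cells with a median of 20144 UMIs over all its cells, led by Prg4, Acta2, Lox, Mgp, Dcn and Timp1, of which Acta2 was fixed as a mural marker. Its summed levels within the class were 6859 CPM for 17 fibroblast markers and 3679 CPM for 16 mural markers. Of these, 13 and 5 reached 10 CPM. The class held 3, 16, 63, 15 and 7 cells from sham to day 14, too few for a ratio to sham.

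Mural-like cells held 2.67%, 1.62% and 3.28% of the UMIs of Col1a1, Col1a2 and Col3a1 at day 3. They had 1106, 763 and 754 CPM of Col1a1, Col1a2 and Col3a1 in 31 cells, 27 of them from a cluster led by Ccl11, Tnc and Bgn that carried 14 mural and 5 fibroblast markers. At day 7, where 106 mural-like cells belonged to a cluster led by Vtn, Atp13a5 and Rgs5, the levels were 66.8, 271 and 159.5 CPM. At day 14, 7 fibroblast-like and 8 mural-like cells held 53.1% and 39.0% of the library's Col1a1 UMIs, so 15 cells carried most of them.

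Some collagen I transcripts lay outside connective tissue cells. In astrocyte-like cells, Col1a1 was 53.4 CPM in the sham library from 174 UMIs, or 90.6% of the library's Col1a1 UMIs, and 9.34, 9.66, 10.0 and 12.4 CPM at days 1, 3, 7 and 14. Sham was thus the only high library, and the log2 ratios to it were -2.52 (-2.92 to -2.12), -2.47 (-2.84 to -2.10), -2.41 (-2.72 to -2.10) and -2.11 (-2.80 to -1.48). The sham level was 77.6 CPM in a cluster of 2159 sham cells led by Slc6a11 and Agt and 31.7 CPM in a cluster of 2073 sham cells led by Hes5, and in the 1092 day 1 cells of the Slc6a11 cluster it was 51.0 CPM. Within that cluster, then, day 1 differed less from sham than over the whole class.

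The other collagen I chain did not follow. Col1a2 stood at 11.97 CPM in sham astrocyte-like cells and at 11.4, 17.8, 10.7 and 35.6 CPM afterwards, and Col3a1 was at or below 1.08 CPM in each library. Of 4242 sham astrocyte-like cells, 165 held a Col1a1 UMI, 38 a Col1a2 UMI and 1 both. With so few UMIs, at a median of 687 per cell over all genes, this cannot tell whether the same cells carry both chains. UMIs of Col1a2 were also counted where few or no Col1a1 UMIs were, in choroid plexus-like cells at day 14, with 55 UMIs against 0, in ependymal-like cells at day 1, with 14 against 0, and in endothelial-like cells at day 7, with 195 against 14. Those endothelial-like cells carried 4095 CPM of the 16 mural markers. Mural-like cells of the same library held 73 Col1a2 against 18 Col1a1 UMIs, and the part of mural transcripts was not tested.

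**Figure D3:**
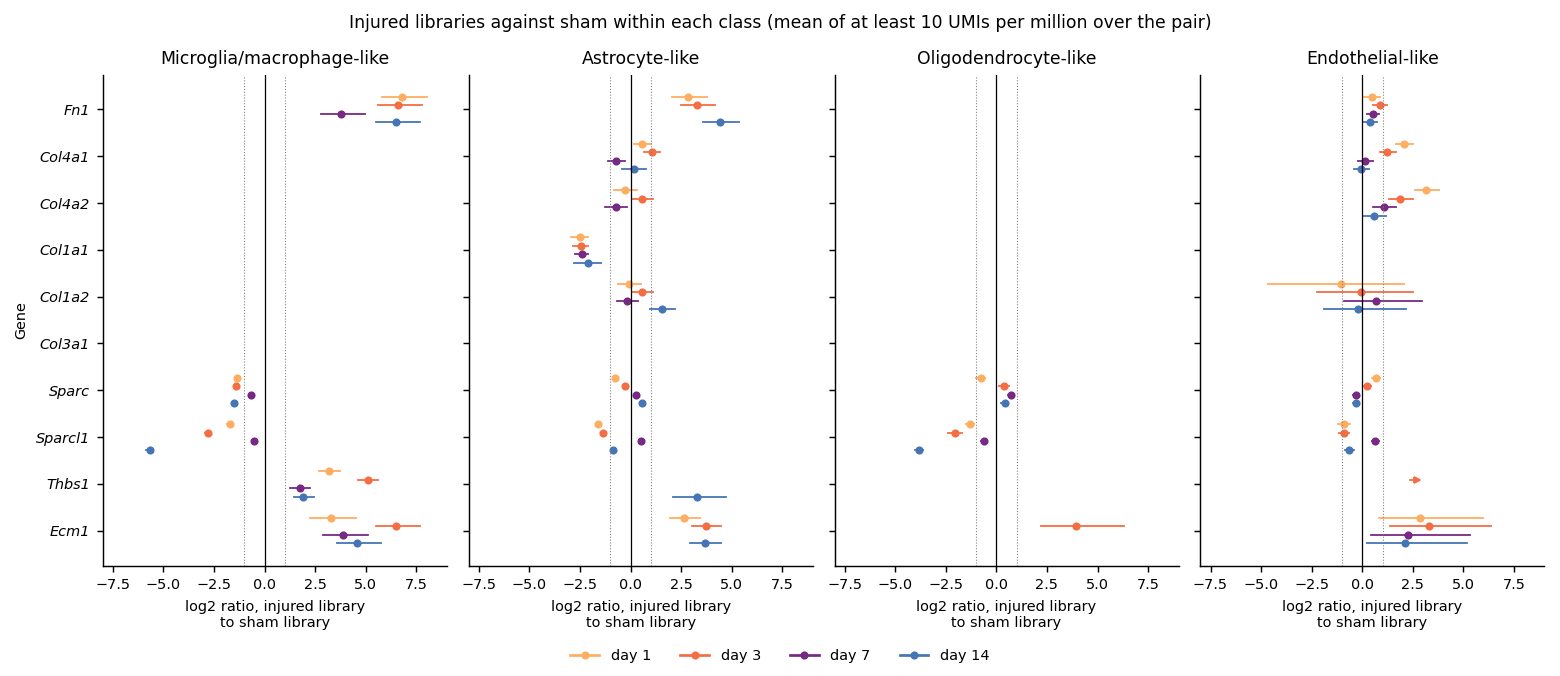
Log2 ratio of each injured library to the sham library (horizontal axis) for the genes (vertical axis) that reached a mean of 10 CPM over the pair, in 4 classes, with 95% counting intervals as lines. Dotted lines mark 2-fold and a triangle marks a lower bound against 0 UMIs. Fn1, Thbs1 and Ecm1 lie to the right in microglia/macrophages at each day, and Col1a1 lies to the left in astrocyte-like cells at each day.

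Sparc encodes osteonectin, a collagen-binding matricellular protein. Microglia-like cells held between 61.2% and 83.2% of its UMIs in the 5 libraries. Their level was 3410 CPM in the sham library and 1321, 1827, 2569 and 1649 CPM at days 1, 3, 7 and 14. The sham library was the highest and day 1 the lowest, and at 500 UMIs per cell the share of microglia-like cells with a Sparc UMI was 78.5% (77.3 to 79.7), 45.2%, 56.4%, 63.1% and 54.4% in the same order.

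Over microglia-like and monocyte/macrophage-like cells together, the log2 ratios of Sparc to sham were -1.39, -1.40, -0.68 and -1.51 at days 1, 3, 7 and 14. For microglia-like cells alone they were -1.37, -0.90, -0.41 and -1.05, and with TMM scaling of the joined class -1.30, -1.01, -0.30 and -0.83, so the call held in both only at day 1. Monocyte/macrophage-like cells carried little Sparc at days 1, 3 and 14 (67.7, 94.01 and 119 CPM) and 960 CPM at day 7. That day 7 level came mainly from a cluster of 896 cells led by Cd5l, Gpnmb and Lyz2, at 1047 CPM, and these day 7 monocyte/macrophage-like cells carried 27711 CPM of the 16 microglia markers, against 7156 CPM at day 3.

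In endothelial-like cells Sparc stood at 2967 CPM in the sham library and at 4739, 3513, 2400 and 2401 CPM at days 1, 3, 7 and 14, with each ratio under 2-fold. Astrocyte-like cells had 888, 515, 725, 1082 and 1332 CPM, and 16 microglia markers lay in them at a median of 4.36% of the microglial level in the sham library, against 26.0% for Sparc. The part of free RNA in these levels was not tested. Fibroblast-like and mural-like cells at day 3 had 2349 and 3250 CPM.

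Sparcl1, or hevin, is a relative of Sparc that astrocytes secrete at synapses. Astrocyte-like cells held between 60.8% and 89.8% of its UMIs, with 5321 CPM in the sham library and 1777, 2077, 7710 and 2963 CPM at days 1, 3, 7 and 14. Days 1 and 3 were the lowest and day 7 the highest. On the log2 scale, the 4 ratios were -1.58 (-1.61 to -1.55), -1.36 (-1.39 to -1.33), 0.53 (0.51 to 0.56) and -0.84 (-0.89 to -0.80). The day 7 value came from 1830 cells. With a mitochondrial limit of 10%, 619 day 7 cells were called astrocyte-like, and with doublets kept 2733. The part of cell quality in the day 7 level was not tested.

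Day 1 mixed clusters: in the Slc6a11 cluster, shared by sham and day 1, Sparcl1 stood at 6477 CPM in 2159 sham cells and 3292 CPM in 1092 day 1 cells, under 2-fold lower. A cluster of 3307 day 1 cells led by Ptx3, with 0 sham cells, had 1522 CPM.

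The day 3 value depended on which cells were called astrocyte-like. It was between -0.77 and -0.65 when cells needed 1000 UMIs, at Leiden resolution 2, at a 10% mitochondrial limit, with doublets kept or with the 10 genes in the clustering. In the day 3 library the cluster of 1192 cells led by Gjb6 and Htra1 had 3225 CPM of Sparcl1 and that of 873 cells led by Tagln, Igfbp2 and Lcn2 had 1088 CPM. Endothelial-like cells had 1995, 1063, 1054, 3132 and 1284 CPM from sham to day 14, and here too days 1 and 3 were lowest and day 7 highest, with ratios under 2-fold. The 16 astrocyte markers summed in them to 4558, 3164, 1095, 6232 and 761.7 CPM, and their part in these values was not tested.

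In microglia-like cells Sparcl1 stood at 260 CPM in the sham library and 79.9, 39.8, 189 and 5.52 CPM afterwards, which is 4.90%, 4.50%, 1.91%, 2.46% and 0.186% of the astrocyte-like level. The astrocyte markers lay at a median of 5.12%, 3.98%, 2.09%, 2.61% and 0.178% of their astrocyte-like level in the same cells. Sparcl1 lay within the range of the 15 or 16 markers in each library. Its ratios in the joined class, down to a log2 ratio of -5.67 at day 14, are given as values only, and the part of free RNA in them was not tested.

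Thbs1 encodes thrombospondin, a matricellular protein known to activate latent TGF-beta and to inhibit vessel growth. After injury it lay mainly in myeloid cells: monocyte/macrophage-like cells held 37.3%, 84.7%, 68.9% and 72.6% of its UMIs at days 1, 3, 7 and 14, and microglia-like cells another 35.7% at day 1. Their level was 1958, 955, 82.8 and 90.9 CPM in 84, 977, 1167 and 1544 cells, and the sham library had 1 UMI in 22 cells. Days 1 and 3 were thus high and days 7 and 14 low.

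The cluster led by Arg1, Chil3 and Pf4 had 4205 CPM of Thbs1 in 39 cells at day 1 and 1205 CPM in 716 cells at day 3, against 96.4 CPM in 249 cells of the Ccl8 cluster in the same library. Neutrophil-like cells had 811, 279.5, 15.7 and 182 CPM at days 1, 3, 7 and 14, in 148, 389, 93 and 84 cells. Microglia-like cells were lower, at 8.95 CPM in the sham library and 41.4, 17.4, 9.41 and 10.4 CPM afterwards, so day 1 alone passed 2-fold there, with a log2 ratio of 2.21. The joined class gave 3.18 (2.68 to 3.72), 5.09 (4.61 to 5.62), 1.73 (1.24 to 2.26) and 1.92 (1.43 to 2.45), of which the later 3 lie under 2-fold in microglia-like cells alone.

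In endothelial-like cells no Thbs1 UMI was seen in the sham library, where 3 UMIs would be 25.8 CPM, and 48 UMIs were seen at day 3. That is at least 6.47-fold higher, but all 48 UMIs lay in 4 of the 73 cells. The summed level of 19 monocyte/macrophage markers in the endothelial-like class was 1823 CPM in the sham library, with 3 of the markers at 10 CPM or more, and 3467 CPM at day 3, with 9 of them, and its part in this value was not tested.

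Ecm1 encodes a secreted glycoprotein that binds several matrix proteins, perlecan among them. It was scarce in the sham library, with 31 UMIs, and reached 598, 4562, 2423 and 4255 UMIs at days 1, 3, 7 and 14. At day 1 astrocyte-like cells held the largest share, 47.3%, and at days 3, 7 and 14 monocyte/macrophage-like cells did, with 65.7%, 53.6% and 62.6%. Its promoter window holds 1 match to GGGCGG, 1 to TATAAA and 1 to TGANTCA, which occurs in 7.81% of windows.

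Monocyte/macrophage-like cells had 349.8, 547, 88.9 and 123 CPM of Ecm1 at days 1, 3, 7 and 14, with day 3 highest. The Arg1 cluster had 667 CPM at day 1 and 660.0 CPM at day 3, against 164 CPM in the Ccl8 cluster of the same library. Microglia-like cells had 1.90 CPM in the sham library from 7 UMIs and 13.6, 28.5, 8.79 and 20.1 CPM afterwards. In the joined class the log2 ratios were 3.28 (2.26 to 4.51), 6.47 (5.49 to 7.69), 3.88 (2.89 to 5.09) and 4.56 (3.58 to 5.78) and they were 2.84, 3.91, 2.21 and 3.41 in microglia-like cells alone, where days 1 and 7 stayed under a mean of 10 CPM.

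Astrocyte-like cells had 5.52 CPM of Ecm1 in the sham library from 18 UMIs and 34.8, 72.1, 12.7 and 70.6 CPM afterwards. The ratios to sham were 2.65 (1.97 to 3.43) at day 1 and 3.71 (3.04 to 4.47) at day 3 on the log2 scale. At day 3 the level was 13.2% of the macrophage level, while 10 monocyte/macrophage markers lay at a median of 0.865% of theirs. The part of free RNA in it was not tested. Ependymal-like cells had 245 CPM at day 1 and 36.9 CPM at day 14, and endothelial-like cells had 124, 167, 83.4 and 75.4 CPM at days 1, 3, 7 and 14, with 2 UMIs in the sham library.

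Among day 14 astrocyte-like cells, a class of 279 cells, Fn1, Thbs1 and Ecm1 lay mostly in 1 cluster. Fn1 stood there at 85.1 CPM against 3.99 CPM in the sham library, Thbs1 at 21.01 against 2.15 CPM, and Ecm1 at 70.6 against 5.52 CPM, which are log2 ratios of 4.42 (3.60 to 5.36), 3.29 (2.11 to 4.70) and 3.68 (2.96 to 4.47). The cluster led by Tagln, Igfbp2 and Lcn2, with 141 day 14 cells and 5 sham cells, held 155, 36 and 126 of the 158, 39 and 131 UMIs. In the 65 day 14 cells of a cluster led by Aldoc, Clu and Prex2, the levels were 3.06, 3.06 and 9.18 CPM. The class ratios therefore set a cluster with few sham cells against other sham clusters. With doublets kept, the same ratios were 1.49, 1.25 and 1.38. Markers of other types were also higher in this class: 19 monocyte/macrophage markers summed to 75.2 CPM in the sham library and 2038 CPM at day 14, 16 mural markers to 113 and 726 CPM, and 17 fibroblast markers to 99.7 and 662 CPM. At day 14, 7 of the mural and 4 of the fibroblast markers reached 10 CPM. The mural list holds Tagln, which led the cluster above. The fibroblast list summed to 15016 CPM in day 14 oligodendrocyte-like cells, with 2 markers at 10 CPM or more. Neither sum is thus a measure of those cell types alone. The part of any of these lists in the values was not tested.

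**Figure D4:**
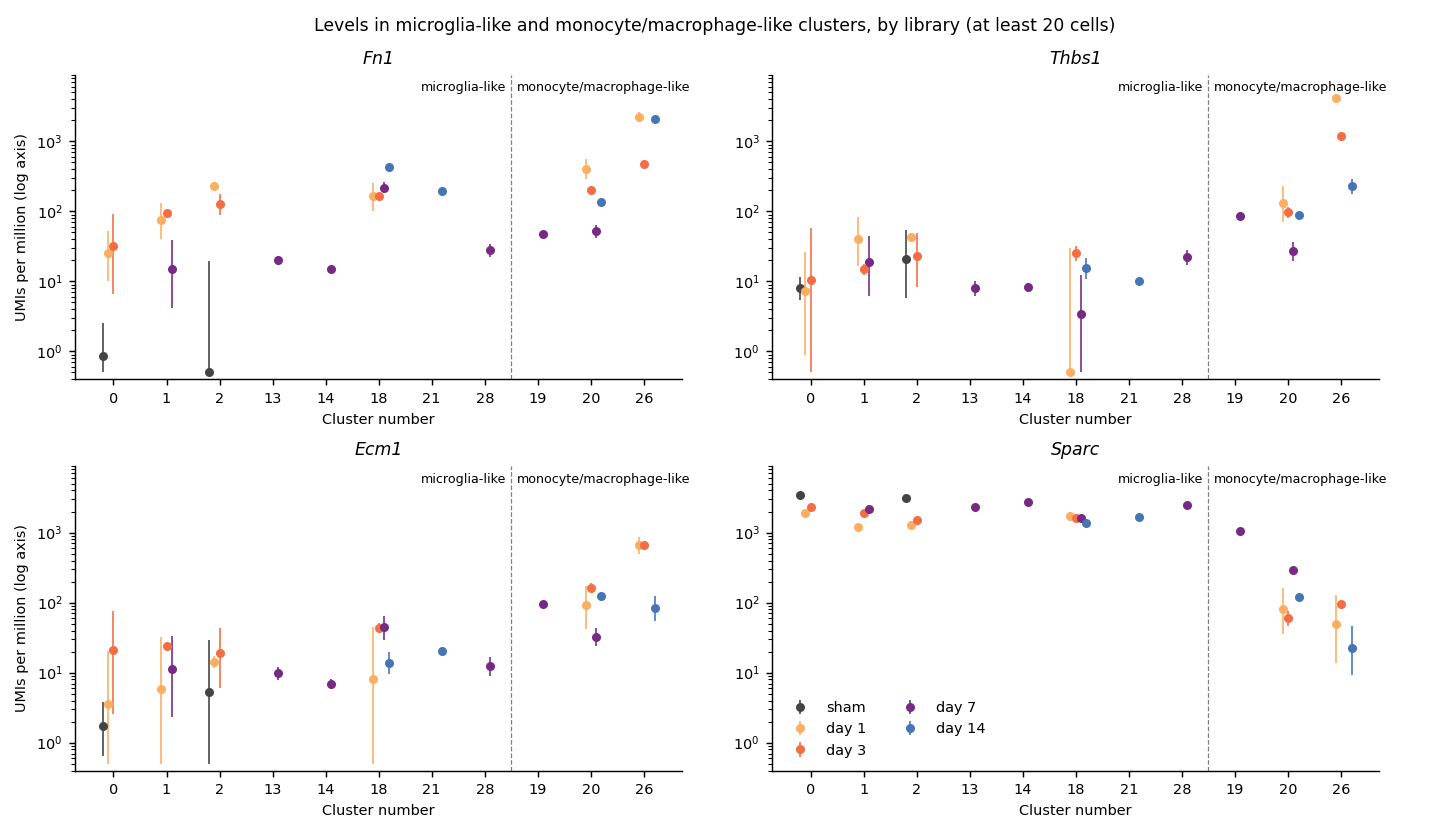
Levels of Fn1, Sparc, Thbs1 and Ecm1 in CPM (log axis) in clusters named microglia-like or monocyte/macrophage-like (horizontal axis, cluster number), by library, for clusters with at least 20 cells of a library. Values below 0.5 are drawn at 0.5. Cluster 26, led by Arg1, Chil3 and Pf4, stands highest among the day 3 points for Thbs1 (1205 CPM) and Ecm1 (660.0 CPM) and higher still in its 39 day 1 cells (4205 and 667 CPM), while Sparc is higher in the microglia-like clusters.

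Counted over the joined microglia/macrophage class, 5 of the 10 genes reached a mean of 10 CPM at each day: Fn1, Sparc, Sparcl1, Thbs1 and Ecm1. Fn1, Thbs1 and Ecm1 were at least 2-fold higher than in the sham library at each of the 4 days, beside 7.82%, 10.1%, 4.92% and 6.59% of all measured genes at days 1, 3, 7 and 14. Fn1 and Ecm1, each at 2.15 CPM in the sham library, could only be measured through an injured library and then had to differ. Sparc and Sparcl1 were at least 2-fold lower at days 1, 3 and 14, beside 10.2%, 24.4% and 26.4% of genes, and no measured member was lower at day 7, where 14.6% of genes were. The lower calls of days 3 and 14 were thus shared with many genes. Monocyte/macrophage-like cells were 22 of the 4527 sham cells of this class and 977 of the 3894 at day 3. In microglia-like cells alone, 4, 5, 3 and 4 members were measured, with 2, 2, 1 and 2 higher and 2, 1, 0 and 2 lower. Over all 8730, 8530, 8561 and 8314 genes measured there, 689, 804, 365 and 450 were higher and 908, 1784, 989 and 2088 lower.

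In astrocyte-like cells, 8, 8, 6 and 8 of the 10 genes were measured at days 1, 3, 7 and 14. At least 2-fold higher were 2 at day 1 (Fn1, Ecm1), 3 at day 3 (with Col4a1), 0 at day 7 and 4 at day 14 (Fn1, Thbs1, Ecm1, Col1a2), beside 12.4%, 10.1%, 4.31% and 15.9% of all genes. Fn1, Thbs1 and Ecm1, at 3.99, 2.15 and 5.52 CPM in the sham library, could again be measured only through an injured library and then had to differ, so nothing is read from these calls. At day 7 Fn1 and Ecm1 stayed under the mean of 10 CPM, with log2 ratios of 1.35 and 1.20. Lower were Col1a1 and Sparcl1 at days 1 and 3 and Col1a1 alone at days 7 and 14, beside 14.0%, 14.9%, 10.0% and 9.27% of genes.

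In endothelial-like cells, 7, 8, 7 and 7 genes were measured. At least 2-fold higher were 3 at day 1 (Col4a1, Col4a2, Ecm1), 4 at day 3 (with Thbs1), 2 at day 7 (Col4a2, Ecm1) and 1 at day 14 (Ecm1), beside 15.9%, 13.3%, 10.6% and 10.8% of genes. Thbs1, with 0 sham UMIs, was measured only through the day 3 library, and its call was fixed by that. Ecm1 rests on 2 sham UMIs, with intervals from 0.80 to 5.99 at day 1 and from 0.24 to 5.198 at day 14 on the log2 scale. The only lower call was Col1a2 at day 1, from 3 and 2 UMIs, with an interval from -4.64 to 2.06, beside 20.1% of genes. None was lower at days 3, 7 and 14, beside 30.6%, 16.8% and 23.4%.

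In oligodendrocyte-like cells, Sparc and Sparcl1 were the measured members at days 1, 7 and 14, joined by Ecm1 at day 3. Higher were 0, 1, 0 and 0 of them, beside 6.47%, 9.83%, 5.09% and 3.92% of genes, the 1 being Ecm1 at day 3, from 3 sham UMIs, with a ratio of 15.2 and a log2 interval from 2.22 to 6.30. At 1.33 CPM in the sham library it could be measured only through day 3, which fixed the call. Lower were 1, 1, 0 and 1, each time Sparcl1, beside 4.99%, 14.7%, 5.36% and 3.78%. Sparcl1 there was 4.52% of the astrocyte-like level in the sham library, where astrocyte markers lay at a median of 4.23%. The part of free RNA in it was not tested.

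Scaling by class totals placed the median of all genes below 0 in several of these comparisons, at -0.35, -0.37 and -0.54 in microglia/macrophages at days 3, 7 and 14 and at -0.31 in endothelial-like cells at day 3 on the log2 scale. TMM scaling moved those medians to 0.06, 0.03, 0.16 and 0.05. With it, the higher genes made up 56.4%, 61.1% and 67.1% of the genes past 2-fold in microglia/macrophages at days 3, 7 and 14, against 29.2%, 25.1% and 19.96% before. The ratios of the members shift by similar amounts.

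Other genes of the matrix were taken from 5 lists of 111 genes: basement membrane, other collagens, other matricellular and matrix glycoproteins, collagen processing and crosslinking, and matrix receptors and uptake. In microglia/macrophages, 32, 31, 32 and 29 of them were measured at days 1, 3, 7 and 14, of which 10, 7, 6 and 5 were at least 2-fold higher and 3, 8, 9 and 9 lower. Over all measured genes 7.82%, 10.1%, 4.92% and 6.59% were higher and 10.2%, 24.4%, 14.6% and 26.4% lower. The median log2 ratio of the list genes was 0.47, 0.10, -0.37 and -0.53, beside -0.06, -0.35, -0.37 and -0.54 over all measured genes. Genes scarce in 1 library of a pair could be measured only through the other and then had to differ, such as Cd36 with 1 sham UMI at day 3. This holds for the list genes and for all genes. In microglia-like cells alone, 10, 4, 3 and 2 list genes were higher and 3, 8, 6 and 9 lower, of 32, 30, 31 and 29 measured. Over all 8730, 8530, 8561 and 8314 genes measured in those cells, 689, 804, 365 and 450 were higher and 908, 1784, 989 and 2088 lower.

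Among the higher ones of the joined class, Tgfbi, a secreted matrix protein that binds collagen and integrins, stood at 20.99 CPM in the sham library and 125, 375 and 112 CPM at days 1, 3 and 14. At day 14 its list had 1 measured gene in the joined class, at a log2 ratio of 2.42. In microglia-like cells alone it also had 1, at 0.69. Sdc4, a heparan sulfate receptor for fibronectin, stood at 31.0 CPM in the sham library and 270.1, 92.6 and 71.4 CPM at days 1, 7 and 14. Itga5, the integrin subunit of the main fibronectin receptor, had 12.1 CPM in the sham library and 69.5 CPM at day 1.

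Col27a1, a fibrillar collagen gene outside the 10, was lower in microglia/macrophages of each injured library, at 241 CPM in the sham library and 58.7, 11.7, 65.0 and 27.5 CPM afterwards. The collagen hydroxylase gene P4ha1 stood at 254 CPM in the sham library and at 38.7, 110.4 and 103 CPM at days 3, 7 and 14. Itga9, an integrin subunit, stood at 63.8 CPM in the sham library and at 22.8, 6.94, 14.2 and 12.5 CPM afterwards.

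In endothelial-like cells, 59, 60, 58 and 58 genes of the lists were measured, with 16, 11, 4 and 3 at least 2-fold higher and 9, 15, 10 and 17 lower. Over all measured genes 15.9%, 13.3%, 10.6% and 10.8% were higher and 20.1%, 30.6%, 16.8% and 23.4% lower, so several of these counts lie near the share of all genes. Genes scarce in 1 library of a pair could again be measured only through the other, which fixed their call, such as Plaur with 0 sham UMIs. The 19 basement membrane genes had 10 measured members at day 1, of which 4 were higher and 0 lower, with a median log2 ratio of 0.61 beside -0.06 over all genes. Nid1, a nidogen that links type IV collagen to laminin, stood at 77.4 CPM in the sham library and 321 CPM at day 1, from 9 and 52 UMIs. Hspg2, which encodes perlecan, stood at 136 CPM at day 1 from 22 UMIs, and had 5 UMIs in the sham library. By day 14 the same list had 0 higher and 4 lower among 12 measured, beside 10.8% and 23.4% of all genes.

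Igfbp7, a vascular matrix protein that binds type IV collagen, stood at 1213 CPM in sham endothelial-like cells and at 4548 and 2980 CPM at days 1 and 3. Ccn2, a matricellular protein, had 51.6 CPM in the sham library and 525 CPM at day 3, from 6 and 151 UMIs. Spock2, a proteoglycan of the Sparc family, was lower at day 1, with 723 CPM against 2528 CPM.

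In astrocyte-like cells, 51, 52, 42 and 61 genes of the lists were measured, with 23, 21, 6 and 30 at least 2-fold higher and 3, 6, 2 and 2 lower. Over all measured genes 12.4%, 10.1%, 4.31% and 15.9% were higher and 14.0%, 14.9%, 10.0% and 9.27% lower. The medians were 0.63, 0.65, 0.05 and 0.98 on the log2 scale, beside -0.06, -0.12, -0.14 and 0.13 over all measured genes. List genes scarce in the sham library could be measured only through an injured library and then had to be higher. The counts and medians include such genes, as do those over all genes. Markers of other types were not confined to day 14 in these cells. From sham to day 14, the 16 mural markers, Tagln of the astrocyte-like cluster named above among them, summed to 113, 143, 958, 148 and 726 CPM. The 18 endothelial markers summed to 195, 447, 108, 197 and 318 CPM. Their part in these counts was not tested.

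**Figure D5:**
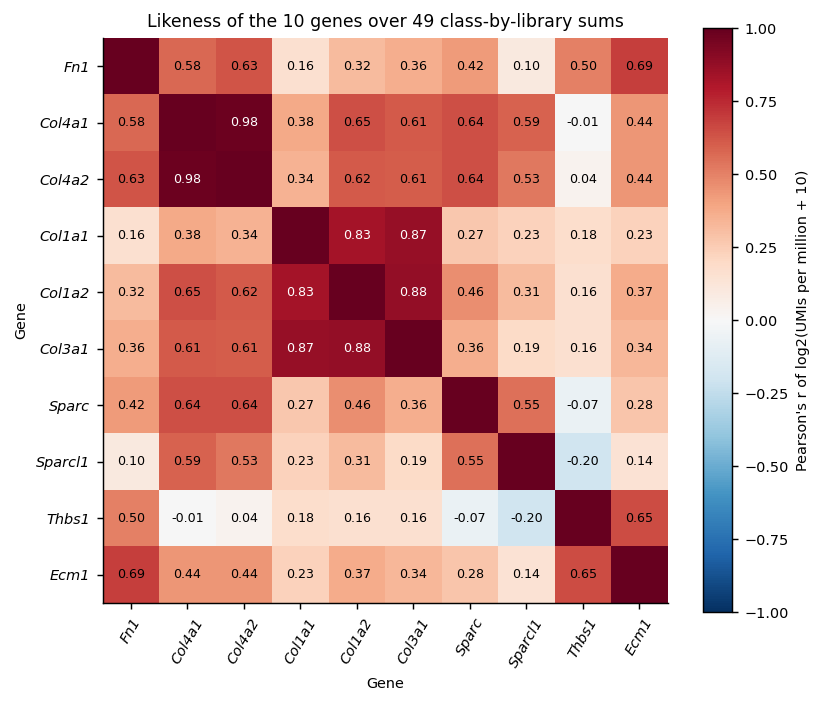
Pearson's r of log2(CPM + 10) between each pair of the 10 genes (both axes list the genes) over 49 class-by-library sums of at least 50 cells. Col4a1 with Col4a2 (0.98) and the 3 pairs of fibrillar genes (0.83 to 0.88) form the darkest blocks with 10 CPM added, and Thbs1 with Sparcl1 is the lowest (-0.20).

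Over 49 sums of a class in a library, Pearson's r of log2(CPM + 10) was 0.98 between Col4a1 and Col4a2, 0.88 between Col1a2 and Col3a1, 0.87 between Col1a1 and Col3a1 and 0.83 between Col1a1 and Col1a2. With 1 CPM added in place of 10, the fibrillar pairs stood at 0.71, 0.64 and 0.66, close to Fn1 with Ecm1 (0.71) and Col1a2 with Col4a2 (0.71), while Col4a1 with Col4a2 stayed at 0.93. Fn1 was most like Ecm1 (0.69) among the 10 genes, and Thbs1 was also most like Ecm1 (0.65). These points share libraries and depth, and the values are a description without a test. Fibroblast-like cells entered only through day 3 (63 cells) and mural-like cells only through day 7 (106 cells). The r values of the fibrillar genes may therefore rest largely on few points.

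Out of 10395 genes compared in the same way, the gene most like Col4a1 and Col4a2 was in each case the other of the pair, followed by Ehd2 (0.97) for Col4a1 and Foxc1 (0.96) for Col4a2. Col3a1 was most like Dcn (0.99) and Twist1 (0.98), and Col1a1 most like Fibin (0.92), Lox (0.91) and Lum (0.91). Dcn, Twist1 and Lum were among the fixed markers by which fibroblast-like cells were named, and that class entered through 1 library only. Fn1 was most like Rai14 (0.83), Sparc like Ecscr (0.81), Sparcl1 like Cpe (0.92), Thbs1 like Cxcl1 (0.82) and Tgfbi (0.80), and Ecm1 like Myof (0.78).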

How the data were processed

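The deposited files hold raw UMI counts per gene and barcode, made by the authors with Cell Ranger 4.0.0 per the file headers. STAR 2.5.37, Seurat 3.2.0, GRCm38 and mm10 are named, without a role, in the submitters' processing notes. The other files are deposited lists of barcodes and genes without values. The 10 genes and the gene and marker lists were chosen with earlier results of these data known. The naming thresholds, and running Scrublet on all barcodes of a library, were set after the clusters and calls had been seen.

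Barcodes were kept from 500 UMIs and 200 genes upward if mitochondrial UMIs made up no more than 20%, and Scrublet doublets (3.16% to 8.52% per library) removed. Of the barcodes, 70.0% were below 1000 UMIs in the sham library and 12.7% were above the mitochondrial limit at day 7. Cells were clustered in scanpy 1.11.5 (10000 UMIs per cell, log scale, 2000 variable genes without the 10 members, 30 principal components, 15 neighbours, Leiden resolution 1) into 33 clusters. A cluster was named "-like" from at least 3 markers of 263 fixed for 18 classes (at least 10% of cells and 2-fold above all other cells), and ambiguous clusters were split again. Members were never used as markers.

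Counts were summed per class and library and given per 1000000 UMIs (CPM), with exact Poisson intervals. Intervals of ratios to sham are exact conditional binomial ones, and those of shares are exact Clopper-Pearson ones, at 95%, all covering counting error only. They were computed in classes with at least 50 cells in both libraries, and 0 UMIs were set to a floor of 3 per library. For shares, each cell was thinned to 500 UMIs, and no cell was shallower. The calculation was tested on simulated data. edgeR 4.0.16 and DESeq2 1.42.0 served only to scale sums in alternatives. Other genes named were, per list, up to 3 each way with the largest ratio past 2-fold and at least 50 CPM in 1 library, in microglia/macrophages and endothelial-like cells, and for likeness the 5 genes with the highest r per member. Of the 10 members, 6 had a RefSeq promoter window. Gene identifiers were matched to GENCODE release M21. The kit reads 3′ ends. Levels were not ranked between genes, and where UMIs of Col1a1 and Col1a2 stand side by side, differences in capture between the genes were not tested.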

Additional observations from a re-analysis of the deposited data

How the results depend on the processing

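No direction past 2-fold was reversed under any alternative run. Without a minimum CPM, the member-by-day ratios past 2-fold numbered 11 in place of 6 (lower, microglia/macrophages), 14 in place of 9 (higher, astrocyte-like), 12 in place of 1 and 8 in place of 3 (higher and lower, oligodendrocyte-like), and those of the other matrix genes in microglia/macrophages 65 in place of 28 (higher) and 138 in place of 29 (lower); more genes were counted by construction. With microglia-like clusters alone, 7 ratios were higher in place of 12. In oligodendrocyte-like cells the higher ratios numbered 3 with doublets kept and 0 with the mean over cells; the cause was not tested. Among the other matrix genes, TMM and DESeq2 scaling left 15 and 16 lower ratios in microglia/macrophages in place of 29. Requiring a counting interval that excludes 1, an alternative chosen after seeing the data, left 0 lower member ratios in place of 1, and 21 higher and 30 lower ratios of the other matrix genes in place of 34 and 51, in endothelial-like cells. The first source class was kept in 47 to 50 of 50 member-by-library pairs, Fn1 at day 14 among those that changed. Without thinning, 3 of 10 members kept the class and library with the highest share of cells, and with 1 CPM added in place of 10, 28 of the 50 most similar genes stayed; the cause was not tested. At 1000 UMIs per cell, sham endothelial-like cells were too few to compare, and the log2 ratio of Fn1 in microglia/macrophages at day 1 was 5.06 in place of 6.80. Low sham depth limits every gene with few sham UMIs, Fn1, Ecm1 and Col3a1 among them. No paired analysis was possible because each group is 1 library.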

Other observations

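Outside the classes compared with sham, ependymal-like cells, which line the ventricles, carried Sparc at 1315 CPM in 76 cells at day 1 and 1603 CPM in 38 cells at day 14, and Col4a1 at 69.4 and 57.4 CPM in the same libraries. Choroid plexus-like cells carried Thbs1 at 89.1 CPM (18 UMIs in 90 cells) at day 1, 125 CPM (63 UMIs in 174 cells) at day 3 and 15.4 CPM (24 UMIs in 146 cells) at day 14. Ependymal-like cells of day 3 had 641 CPM of Ecm1, from 72 UMIs in 21 cells.

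Oligodendrocyte precursor-like cells had 16.4, 24.9 and 20.7 CPM of Col4a1 at days 3, 7 and 14, from 39, 56 and 27 UMIs, and 0 UMIs in 58 sham cells. Neuroblast-like cells carried Fn1 at 10.7 CPM in the sham library, from 4 UMIs, and at 15.3, 14.0, 19.2 and 27.2 CPM at days 1, 3, 7 and 14. T or NK-like cells had 15.9 CPM of Fn1 at day 14, from 167 UMIs in 1868 cells, and at most 0.67 CPM of each collagen gene in that library.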
